A study of Homo sapiens with 6 samples.

Results

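The genes described are the NF-kB subunits NFKB1, NFKB2, RELA, RELB and REL, the inhibitors NFKBIA, NFKBIE and TNFAIP3, and the regulators of the noncanonical arm, TRAF3 and BIRC3. They were chosen by name, and each is read by the probe sets whose platform annotation names that gene alone. Of the 10 genes 9 were measured, by 17 probe sets, among 17534 genes in all, and BIRC3 was not analysed here. The samples were 6 PrimeView arrays of MM.1R, a glucocorticoid-resistant human multiple myeloma cell line. The 3 shCtrl arrays are of cells that received a control short hairpin vector by infection. The other 3 are of cells treated with epirubicin hydrochloride, an anthracycline that poisons topoisomerase II, added with the stated aim of blocking proliferation. The labels name the vector for the shCtrl arrays alone. Whether the treated cells carried one is not given, so the drug cannot be told apart from a possible difference in vector. Neither dose nor duration is given in the sources used here, and both groups come from a single cell line. No label says whether the replicate arrays are from different cultures, so the p-values measure only the spread between these arrays, which may be technical.

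NF-kB transcription factors are dimers of Rel-family proteins that resting cells hold in the cytoplasm, bound by inhibitors of the IkB family. In the canonical arm the IKK kinase complex marks IkB proteins for destruction and frees dimers such as RELA with p50, the product of NFKB1. In the noncanonical arm the kinase NIK, encoded by MAP3K14, drives the processing of the NFKB2 product, which partners RELB, and a complex of TRAF3, TRAF2 and the IAP proteins BIRC2 and BIRC3 keeps NIK low. NFKBIA, NFKBIE, TNFAIP3, RELB, NFKB2, NFKB1, REL and BIRC3 are themselves targets of NF-kB. In multiple myeloma, lesions of TRAF3 and other regulators that raise NF-kB activity are well known.

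The promoters of 5 of these genes are shown because the binding motif of NF-kB, the kB consensus, lies in some of them and not in others, among genes that rose and genes that did not. Each is the 120 bases before a RefSeq start site in GRCh38.p14, with matches to the kB consensus on either strand in capitals: NFKBIA at chr14:35404750-35404869 on the minus strand, TNFAIP3 at chr6:137867139-137867258 on the plus strand, NFKB1 at chr4:102501239-102501358 on the plus strand, TRAF3 at chr14:102777329-102777448 on the plus strand and RELA at chr11:65663858-65663977 on the minus strand.
NFKBIA: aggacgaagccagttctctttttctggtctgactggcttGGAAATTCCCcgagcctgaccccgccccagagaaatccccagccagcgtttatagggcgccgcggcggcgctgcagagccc
TNFAIP3: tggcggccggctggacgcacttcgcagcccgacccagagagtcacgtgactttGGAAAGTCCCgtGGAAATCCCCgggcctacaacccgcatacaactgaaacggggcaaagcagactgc
NFKB1: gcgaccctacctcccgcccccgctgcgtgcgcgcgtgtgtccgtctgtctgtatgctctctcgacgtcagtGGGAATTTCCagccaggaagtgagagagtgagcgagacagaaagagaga
TRAF3: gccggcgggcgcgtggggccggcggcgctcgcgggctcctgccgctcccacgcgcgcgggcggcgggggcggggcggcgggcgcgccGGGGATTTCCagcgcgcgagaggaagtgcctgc
RELA: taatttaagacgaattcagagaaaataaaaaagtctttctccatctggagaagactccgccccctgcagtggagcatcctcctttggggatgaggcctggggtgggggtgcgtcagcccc
NFKBIA held 1 match, on the minus strand, from 81 to 72 bases before the start. TNFAIP3 held 2 matches on the minus strand, at 67 to 58 and 55 to 46 bases. NFKB1 held 1, from 49 to 40 bases, and TRAF3 held 1, from 33 to 24 bases. The RELA windows held none. In windows of 300 bases, 250 before to 50 after each start, 7 of the 8 genes with an entry held a match, in 8 of their 12 windows, against 5.91% of all 35116 windows. The other 3 were REL, with 2 overlapping matches, BIRC3 with 2, and NFKB2, where 1 of several matches reads GGGAATTCCC. RELB and NFKBIE are named without a sequence. A match is a description of the letters and not of a bound site: TRAF3 held one and did not pass the test, as its values show. The genes were chosen by name and most are known NF-kB targets, so their high share of matches was foreseeable and tests nothing.

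With epirubicin 4 of the 9 measured genes rose and 0 fell, also 0 at an unadjusted p under 0.05 in limma. They were the subunit gene RELB, 1.51-fold higher, and all 3 measured inhibitor genes, TNFAIP3 at 1.42-fold, NFKBIA at 1.33-fold and NFKBIE at 1.33-fold. RELA, REL and TRAF3 did not pass the test, and NFKB1 and NFKB2 passed on the adjusted p but lay under the fold threshold. A gene was called at a limma adjusted p under 0.05 and a change of at least 1.3-fold, which is 0.38 on the log2 scale. In bulk RNA, fewer cells of a type and less RNA per cell cannot be told apart. Of all genes tested 4.36% were called higher and 2.14% lower. The median log2 fold change was 0.32 over the 9 genes and 0.02 over all genes. The epirubicin arrays lay wholly above the shCtrl arrays in 6 of the 9 genes, where 23.8% of all genes did so, and wholly below in 1, RELA, where 20.1% did so.

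**Figure D1:**
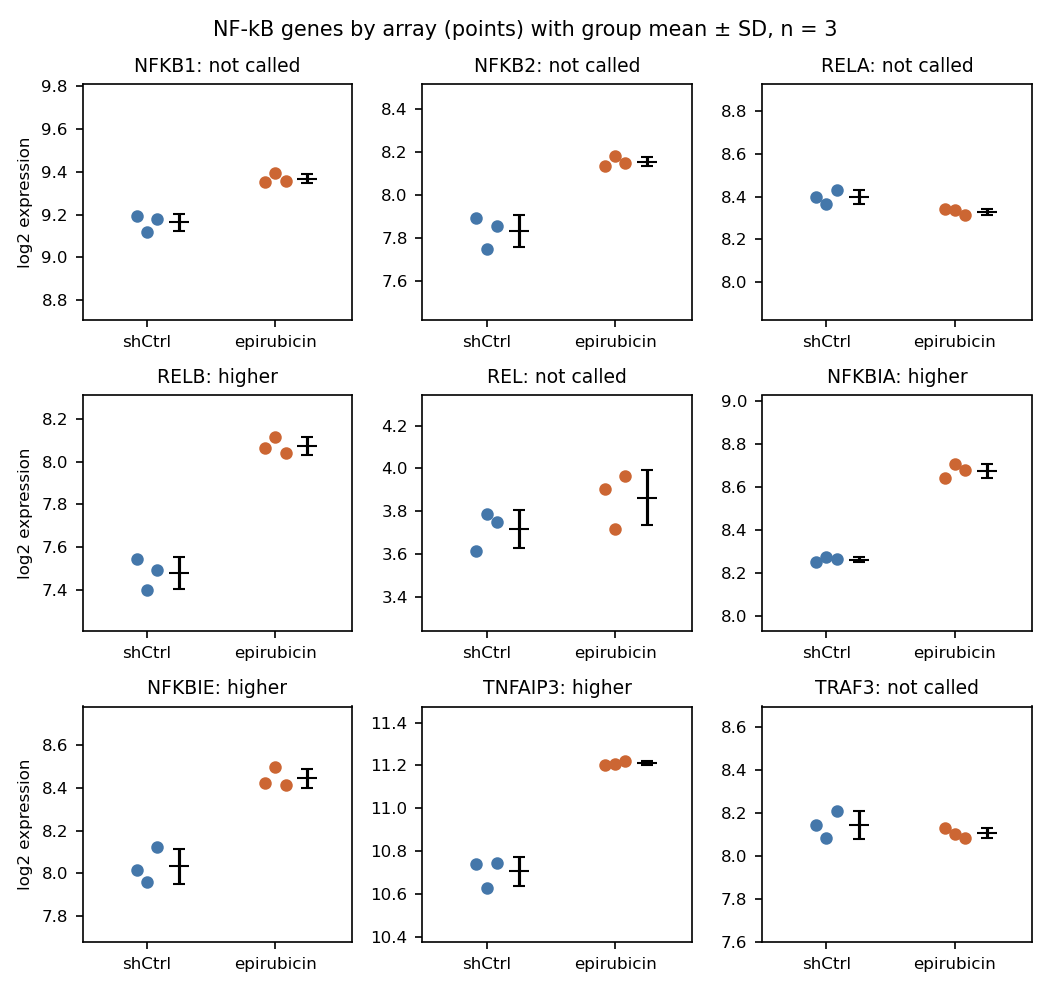
Log2 expression (vertical axis) of the 9 measured NF-kB genes on the 3 shCtrl and 3 epirubicin arrays, 1 point per array, with the group mean ± SD (n = 3) beside the points. Every panel spans the same 1.1 log2 units. The groups are separated in all genes but REL and TRAF3, and the widest separation is that of RELB, from at most 7.55 in shCtrl to at least 8.04 with epirubicin.

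RELB encodes the subunit that pairs with the processed NFKB2 product. Its log2 expression was 7.55, 7.40 and 7.49 on the shCtrl arrays and 8.06, 8.12 and 8.04 on the epirubicin arrays. Every epirubicin array lay above every shCtrl array, with a gap of 0.49 between the groups. The log2 fold change was 0.59 (SE 0.05, CI 0.48 to 0.71, limma adjusted p = 0.000296), so that even the lower bound of the 95% confidence interval (CI), 1.39-fold, exceeded the threshold.

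NFKB2 encodes p100, which is processed to the p52 subunit and which, unprocessed, also holds RELB inactive. Its log2 expression was 7.89, 7.75 and 7.86 in shCtrl and 8.14, 8.18 and 8.15 with epirubicin. The groups did not overlap. The log2 fold change of 0.32 (SE 0.04, CI 0.22 to 0.43, limma adjusted p = 0.00242), a 1.25-fold difference, fell short of the fold threshold, which lies inside its interval.

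NFKB1 encodes p105 and, from it, p50, the usual partner of RELA. Its log2 expression was 9.19, 9.12 and 9.18 in shCtrl and 9.35, 9.39 and 9.36 with epirubicin. The groups were again apart, by 0.16. The difference of 0.20 (SE 0.03, CI 0.12 to 0.29, limma adjusted p = 0.00551) was 1.15-fold, and its interval lay wholly under the threshold.

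RELA encodes p65, the main transactivating subunit of the canonical arm. Its brightest probe set read 8.40, 8.37 and 8.43 in shCtrl and 8.34, 8.34 and 8.31 with epirubicin. The epirubicin arrays were lower by a gap of only 0.03, and the test was not passed (log2 fold change -0.07, CI -0.15 to 0.01, limma adjusted p = 0.179). The other RELA probe sets differed by -0.21 and -0.07, neither called. The interval of the first lay below 0 (CI -0.41 to -0.02, limma unadjusted p = 0.0372, adjusted p = 0.111), though its groups overlapped.

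REL encodes c-Rel, a subunit prominent in lymphoid cells. Both of its probe sets were dim. The one used read 3.62, 3.79 and 3.75 in shCtrl and 3.91, 3.72 and 3.96 with epirubicin, close to the lower quartile of the arrays, 3.84 to 3.90. The groups overlapped, since the second epirubicin array lay below the higher 2 shCtrl arrays (log2 fold change 0.14, CI -0.04 to 0.33, limma adjusted p = 0.216). The dimmer probe set of REL was higher by 0.35 (CI 0.17 to 0.52, limma adjusted p = 0.0144), under the fold threshold, with its groups apart. Detection calls were not used here.

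Among the inhibitors, TNFAIP3 encodes A20, a ubiquitin-editing enzyme that shuts down signalling to IKK. Its log2 expression was 10.74, 10.63 and 10.75 in shCtrl and 11.20, 11.21 and 11.22 with epirubicin. The epirubicin arrays were tightly grouped, with an SD of 0.01 against 0.07 in shCtrl, and all lay higher. The log2 fold change was 0.50 (SE 0.04, CI 0.40 to 0.60, limma adjusted p = 0.000337). The second TNFAIP3 probe set showed a smaller difference, 0.30 (CI 0.21 to 0.38), which was not called, and the mean over both was 0.40, still called.

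NFKBIA encodes IkB alpha, the classical inhibitor that NF-kB resynthesises after each round of activation. Its log2 expression was 8.25, 8.27 and 8.26 in shCtrl and 8.64, 8.71 and 8.68 with epirubicin. All epirubicin arrays were higher, by a gap of 0.37, and the shCtrl arrays differed little among themselves (SD 0.01). The log2 fold change was 0.41 (SE 0.03, CI 0.34 to 0.49, limma adjusted p = 0.000263). The probe set used carries the _x_at suffix, which marks probes that can match other transcripts. A second NFKBIA probe set without that suffix differed by 0.40 and was called as well, and the remaining one differed by 0.37, just short of the threshold.

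NFKBIE encodes IkB epsilon, another inhibitor of the family. Its log2 expression was 8.02, 7.96 and 8.12 in shCtrl and 8.42, 8.49 and 8.41 with epirubicin. All epirubicin arrays were higher, by a gap of 0.29. The log2 fold change of 0.41 (SE 0.05, CI 0.29 to 0.53, limma adjusted p = 0.00150) lay near the threshold. The call was lost without shCtrl replicate 2 (0.375, limma adjusted p = 0.00646) and when each array was centred on its median (0.378, limma adjusted p = 0.00236), both times on the fold and not on the p.

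TRAF3, the adaptor that brings NIK to its degradation complex, read 8.14, 8.08 and 8.21 in shCtrl and 8.13, 8.10 and 8.08 with epirubicin. The groups overlapped, and the log2 fold change of -0.04 (CI -0.14 to 0.06, limma adjusted p = 0.533) was not called. The interval excludes a 1.3-fold change in either direction. The other TRAF3 probe sets differed by 0.01 and -0.11, and neither was called.

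**Figure D2:**
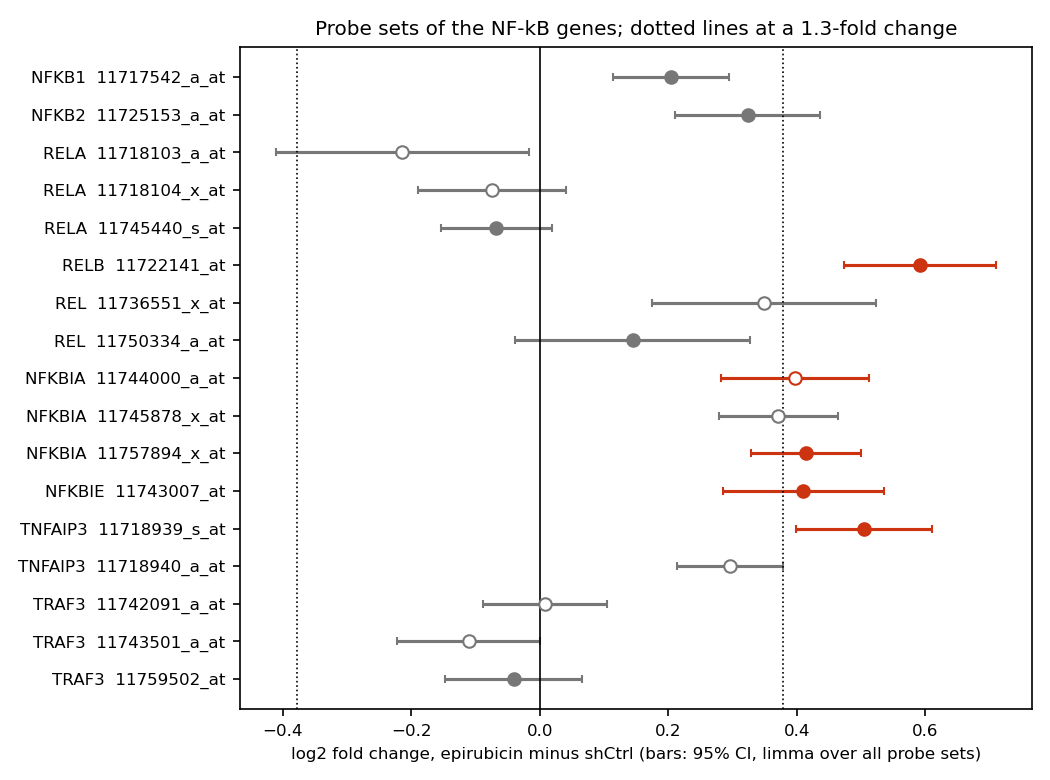
Log2 fold change, epirubicin minus shCtrl (horizontal axis), of the 17 probe sets of the 9 NF-kB genes, with 95% CI from limma over all 47481 probe sets. Filled points are the probe sets used per gene, red marks those called higher and grey those not called, and dotted lines mark a 1.3-fold change. The 5 called probe sets belong to RELB, NFKBIA, NFKBIE and TNFAIP3, and the 3 of RELA lie below 0.

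Over probe sets, 5 of the 17 were called higher and 0 lower, with 1 lower at an unadjusted p under 0.05 in limma, where 3.65% of all 47481 probe sets were called higher and 2.62% lower. All 3 NFKBIA probe sets and both of TNFAIP3 had intervals above 0, whatever their side of the fold threshold. In order of the log2 fold change the genes ran RELB, TNFAIP3, NFKBIA, NFKBIE, NFKB2, NFKB1, REL, TRAF3 and RELA. Each gene's 95% interval overlapped that of its neighbour in this order. On the probe sets used, the interval of RELB, 0.48 to 0.71, did not overlap those of NFKB2, NFKB1, REL, TRAF3 and RELA. It did overlap that of the dimmer REL probe set, 0.17 to 0.52. The differences between genes were not tested.

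By the distance between array profiles, each taken relative to its own shCtrl mean on the log2 scale, the genes most like RELB over the 6 arrays were RRAGC, a Rag GTPase of the mTORC1 pathway (distance 0.04), the cyclin gene CCNG2 (0.07) and RASGEF1B, a guanine nucleotide exchange factor (0.07). Such likeness was common: 202 of 9934 genes compared lay within a distance of 0.25. RRAGC went from 9.05 ± 0.05 to 9.63 ± 0.04 (SD, n = 3), and all 4 RRAGC probe sets were called. CCNG2 was called on 2 of 5.

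Of 18 measured enzymes and adaptors that activate the canonical arm, 0 were called at both thresholds in limma, with a median log2 fold change of 0.05, while 6 were higher and 3 lower at an unadjusted p under 0.05. At any fold 6 of them had an adjusted p under 0.05 upward and 2 downward, where 15.6% of all genes had one upward and 13.5% downward. Examples, chosen after their values were seen, are IKBKB, the catalytic IKK beta subunit (0.33, CI 0.26 to 0.41; 0.14 as the mean of its 11 probe sets), BCL10, an adaptor of the complex with MALT1 (0.35, CI 0.20 to 0.50) and IRAK1, a kinase of Toll-like receptor signalling (-0.27, CI -0.35 to -0.19). BCL10 was called on 1 of its 3 probe sets, as their mean (0.39), and without shCtrl replicate 2 (0.41). IKBKG, the regulatory NEMO subunit, differed by 0.07 (CI -0.04 to 0.17), and by -0.07 as the mean of its 8 probe sets.

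Of 14 measured genes of noncanonical activation and its receptors, 0 were called in limma, with a median of 0.02. At an unadjusted p under 0.05, 3 were higher and 1 lower, and 2 and 1 at an adjusted p under 0.05 at any fold. Over all genes 15.6% passed the latter upward and 13.5% downward. Of the 14 genes, 6 lay below the median of all values, 5.54, on every array, which limits what their differences can show. MAP3K14, the kinase NIK, stood at 6.76 ± 0.04 in shCtrl and 6.76 ± 0.01 with epirubicin (SD, n = 3; difference 0.0004, CI -0.08 to 0.08), and differed by -0.08 as the mean of both of its probe sets. BIRC2, of the complex that keeps NIK low, differed by 0.14 (CI 0.06 to 0.21; 0.07 as the mean of its 5 probe sets). The receptor gene CD40 differed by 0.32 (CI 0.23 to 0.41), and both lay under the fold threshold. Of the BAFF and APRIL receptors of plasma cells, TNFRSF17 (BCMA) differed by -0.06 (CI -0.13 to 0.01) and TNFRSF13B (TACI) by 0.005 (CI -0.06 to 0.07; -0.09 as the mean of its 4 probe sets). The ligand genes LTA and LTB differed by 0.17 and 0.14, and by 0.31 and 0.26 as the mean of both probe sets of each. LTA was called on 1 of its 2 probe sets, but no gene of the list was called as a probe set mean. MAP3K14, BIRC2, CD40, TNFRSF17 and TNFRSF13B were chosen for their role, LTA and LTB for their probe sets. All were named after their values were seen.

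Of 19 other inhibitors and modulators, with a median of 0.12, 2 were called higher and 0 lower, against 4.36% and 2.14% of all genes. They were BCL3, an atypical IkB protein that acts in the nucleus, and CYLD, a deubiquitinase that limits signalling to IKK. BCL3 read 6.68, 6.70 and 6.64 in shCtrl and 7.13, 7.22 and 6.998 with epirubicin (log2 fold change 0.44, SE 0.06, limma adjusted p = 0.00213). CYLD read 8.95, 8.97 and 8.97 against 9.37, 9.35 and 9.35 (0.39, SE 0.03, limma adjusted p = 0.000218). The groups of both were apart, yet neither was called as the mean of its 4 probe sets (0.10 for BCL3 and 0.29 for CYLD), and CYLD was not called after centring (0.36). BCL3 was called on 1 of its 4 probe sets and CYLD on 2 of 4. The BCL3 probe set used carries the _x_at suffix. Over all genes 15.6% had an adjusted p under 0.05 upward at any fold and 13.5% downward. Among the 19, 10 had one upward and 0 downward. They included the IkB-like gene NFKBIZ (0.35, CI 0.26 to 0.44) and the A20-binding protein genes TNIP1 (0.25) and TNIP2 (0.33), named after their values were seen. The IkB beta gene NFKBIB differed by 0.001 (CI -0.08 to 0.09), and by 0.11 as the mean of its 4 probe sets.

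**Figure D3:**
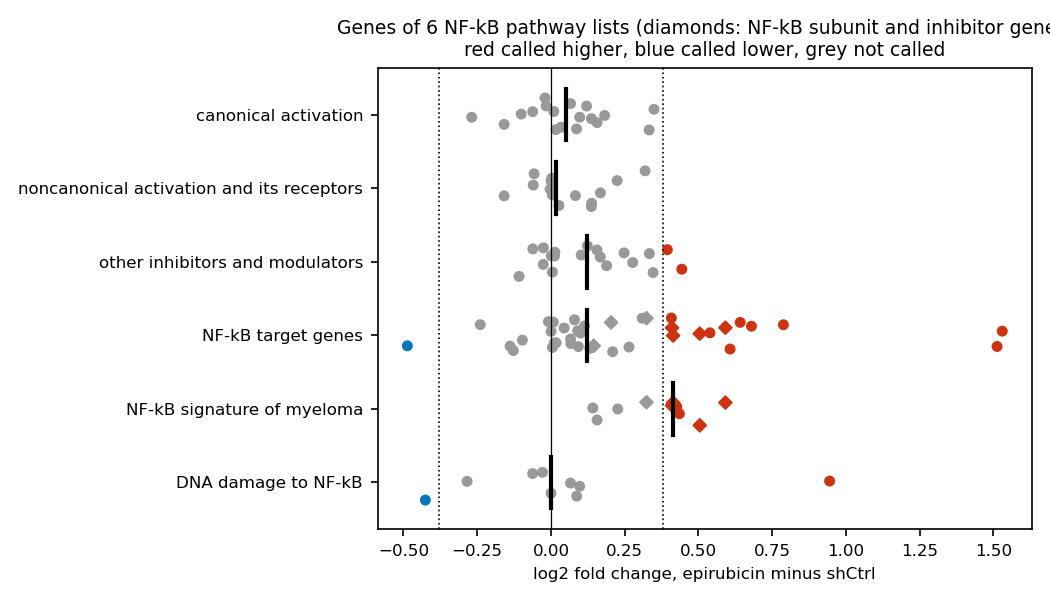
Log2 fold change, epirubicin minus shCtrl (horizontal axis), of each gene in 6 pathway lists (rows, with random vertical spread). Red points were called higher, blue lower and grey neither, diamonds are the NF-kB genes described above, thick lines are list medians and dotted lines mark a 1.3-fold change. No gene was called in the 2 activation lists, and 12 were called higher and 1 lower among the target genes.

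Of 38 measured NF-kB target genes, 12 were called higher and 1 lower, with a median of 0.12. Over all genes 4.36% were called higher and 2.14% lower. The measured list holds 7 of the NF-kB genes themselves. Among its other 31 genes 8 were called higher, 1 lower and 22 neither, with a median of 0.09. CXCL10, a chemokine gene also induced by interferon, read 8.23, 8.27 and 8.17 in shCtrl and 9.74, 9.73 and 9.79 with epirubicin (log2 fold change 1.53, SE 0.04). The chemokine gene CCL2 differed by 1.51 (SE 0.05), and CD80, a costimulatory ligand gene, by 0.79 (SE 0.07; 4 of 5 probe sets). TRAF1, an adaptor induced by NF-kB, read 5.01, 4.80 and 4.83 against 5.51, 5.58 and 5.46 (0.64, SE 0.06; 2 of 3 probe sets), and the adhesion molecule gene ICAM1 differed by 0.54 (SE 0.05; 2 of 3 probe sets), both picked with their values in view. The gene called lower was IRF4, a factor that myeloma cells need to survive (-0.49, SE 0.03). Several cytokine genes of the list were not called. TNF, IL6 and CXCL8, named after their values were seen, differed by 0.13, 0.04 and -0.01, and IL6 by -0.03 as the mean of both of its probe sets. These genes were dim, with shCtrl means of 3.93, 4.49 and 3.77, which limits what their small differences can show. Of the 38 genes, 18 lay below the median of all values, 5.54, on every array.

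A list of genes known to mark NF-kB activity in myeloma holds 5 of the NF-kB genes measured here. Of its 10 measured genes, 6 were called higher and 0 lower, with a median of 0.41, and all 10 had every epirubicin array above every shCtrl array, where 4.36% of all genes were called higher and 23.8% lay wholly above. The 5 that are not among the NF-kB genes above were IL2RG, PLEK, CD74, MALT1 and WNT10A, of which 2 were called higher, with a median of 0.23. IL2RG, the common cytokine receptor chain, read 9.45, 9.44 and 9.50 in shCtrl and 9.89, 9.91 and 9.90 with epirubicin (0.44, SE 0.03, limma adjusted p = 0.000230; 3 of 6 probe sets). PLEK, which encodes pleckstrin, differed by 0.43 (SE 0.03; 1 of 2 probe sets). CD74, the MHC class II invariant chain, the paracaspase gene MALT1 and the Wnt ligand gene WNT10A were not called, at 0.14, 0.16 and 0.23.

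Of 9 genes that link DNA damage to NF-kB, 1 was called higher and 1 lower, with a median of 0.0004. Over all genes 4.36% were called higher and 2.14% lower. At any fold 1 had an adjusted p under 0.05 upward and 2 downward, where 15.6% of all genes had one upward and 13.5% downward. PIDD1, the scaffold of a damage-induced complex with NEMO and also a p53 target gene, read 7.43, 7.32 and 7.28 in shCtrl and 8.28, 8.28 and 8.30 with epirubicin (log2 fold change 0.94, SE 0.05, limma adjusted p = 4.89e-05). ERC1, which encodes the IKK-associated protein ELKS, was lower by -0.43 (SE 0.04; 1 of 6 probe sets), and as the mean of its probe sets it was not called (-0.23). The ERC1 probe set used also carries the _x_at suffix. ATM, the damage kinase, differed by 0.09 (CI -0.01 to 0.19) on its brightest probe set and by -0.09 as the mean of all 5, so its direction turns with the probe sets used. PARP1 differed by -0.28 (CI -0.36 to -0.21), and by -0.22 as the mean of its 4 probe sets. Its groups were apart, but it lay under the fold threshold. ATM and PARP1 were chosen after their values were seen.

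The arrays had nearly equal medians, 5.52 to 5.57, and correlated across probe sets at r = 0.998 or above within groups and at 0.994 to 0.995 between them, where probe sets are not independent replicates. Most plasma cell markers were bright, and the mean over 10 genes was 10.76 to 10.77 on shCtrl and 10.55 to 10.56 on epirubicin arrays. CD38 and CD79A were dimmer, with shCtrl means of 6.42 and 5.94. Of the 10, 0 were called higher and 2 lower, IRF4 (-0.49) and CD38 (-1.18). With epirubicin 7 lay wholly below and 1 wholly above, where 20.1% and 23.8% of all genes did so. Of 9 myeloid markers, 3 were called higher (ITGAM, CD68 and S100A9) and 0 lower, and the summed log2 level of the 9 was 35.7 to 35.8 on shCtrl arrays and 40.8 to 41.4 on epirubicin arrays. ITGAM alone differed by 3.75, CD68 by 0.63 and S100A9 by 0.53, while the median of the list was 0.13. CD14, LYZ, FCGR3A and S100A8 lay below the lower quartile on every array. Of 10 T and NK cell markers and 8 stromal markers, 0 were called in either direction in limma, with 3 and 2 higher and 0 lower at an unadjusted p under 0.05. Over all genes 4.36% were called higher and 2.14% lower. The part of these markers in the results was not tested.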

How the data were processed

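Total RNA was labelled as biotinylated cRNA and hybridized to 6 PrimeView 3' arrays, 3 per group, with groups and replicate numbers taken from the sample titles. The authors' deposited log2 expression values, 1 per probe set and array, were used as they stand. Their range, 1.41 to 13.73, shows the log2 scale, and the affy package, without a version, is named per the submitters' processing notes. Which background correction, normalization and probe summary were applied is not given in the sources used here. Scanner files were not used here. Precision is limited by the number of arrays.

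Of 47481 probe sets, 43976 named 1 gene, 1558 several and 1947 none. Symbols were updated by Entrez number against RefSeq (GRCh38.p14; 43954 matched), and each of 17534 genes was read from its brightest probe set by the mean over all 6 arrays. limma 3.58.1 in R 4.3.3 (lmFit, eBayes, no covariate) was fitted over all genes and over all probe sets, with Benjamini-Hochberg adjustment. Both thresholds come from the series' design text. On simulated data with 17534 genes the fit for epirubicin against shCtrl recovered 34.8% of genes changed 1.3-fold, which lie on the threshold, and 85.8% of those changed 1.5-fold. The simulation changed far fewer genes than passed the adjusted p in the real data, so these rates need not hold there. Promoter windows were those of RefSeq.

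The genes and lists were chosen with earlier results of these data known. Named are all NF-kB genes, per list up to 3 called genes in each direction with the largest changes and groups apart, genes that complete a count of 5 or fewer, and the 3 profiles nearest to RELB. Others are marked where they appear. Alternatives comprised probe set means, quantile normalization, median centring, a filter on dim genes, an intensity trend, a replicate block, no fold threshold, a looser motif and leaving out each array.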

Additional observations from a re-analysis of the deposited data

How the results depend on the processing

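The calls of RELB, NFKBIA and TNFAIP3 held in each of 12 alternatives, and that of NFKBIE in 10. NFKB1, NFKB2, RELA and TRAF3 were called in none of 12 and REL in none of 11, as the filter on dim genes removed it. No NF-kB gene changed sign. NFKB2 ranged from 0.28 to 0.35 on the log2 scale. Counts of NF-kB genes called higher ran from 3 to 4 when 1 array was left out, and 6 had an adjusted p under 0.05 at any fold. Without the fold threshold 2744 genes were higher and 2362 lower in limma, against 765 and 376 with it. Median centring gave 646 and 485. Same-numbered arrays showed no shared deviation from their group means (r = -0.06, -0.0004 and -0.01). With 3 arrays per group this cannot show whether they were handled together, and no label says so. With the replicate block 755 genes were higher and 372 lower, and 4 NF-kB genes were called. For 16 other genes, the called genes of the pathway lists and BCL10, 189 values were recomputed. Of these, 8 ended a call, 2 gained one (both of BCL10) and none changed sign. Uncalled genes outside this set, such as ATM and IKBKG, did change sign as probe set means. CD83 lost its call in 3, CYLD in 2, and BCL3, PLAU and ERC1 in 1 each. A looser motif that keeps only the outer G and C bases was found in all 8 genes with a promoter entry, but also in 58.7% of all windows. Values near the lower quartile, such as those of REL, limit what can be said of dim genes.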
